A study of Mus musculus with 9 samples.

Results

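The 45 genes described here are imprinted genes of the mouse, taken as a list of gene symbols and found in all 45 cases among the 24503 rows of a count table of neural stem cells with lowered Rad21. They fall into 18 imprinted domains or single loci. In textbook knowledge 18 of them are read mainly from the maternal allele and 23 mainly from the paternal allele in at least some tissues. In 4 the allele depends on the isoform. Whether these assignments hold in the neural stem cells used here was not measured. The cells were primary neural stem cells from mouse brain cortex at mid-gestation (E13.5), enriched as neurospheres and grown on laminin with FGF and EGF. All groups shared the same genotype, wild type with both Phf2 alleles floxed, and no Cre is named in the labels. The 3 groups carried, by viral transduction, the hairpin shRad21 #2 (shRad21_2), the hairpin shRad21 #1 (shRad21_1) or a non-targeting hairpin (shNT). Each group had 3 libraries. The labels do not state whether these came from separate cultures or animals, so the p-values rest on a spread between libraries that may be technical only.

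At an imprinted locus, DNA methylation set in the germ line marks a control region on the chromosome from 1 parent, and the genes nearby are then read from a single allele. Several of these control regions bind CTCF, which together with the cohesin ring shapes the loops between promoters and enhancers, and Rad21 is the kleisin subunit that closes that ring. At others a long non-coding RNA is read from the unmethylated control region and silences its neighbours in cis. Many imprinted genes act on growth and several on neural progenitors. The counts did not separate the parental alleles, so every value below is the sum of both and holds no measure of imprinting itself.

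The promoters below belong to 6 paternally expressed genes that the results turn on, Peg3, Mest and Nnat from the lower side and Ndn, Nap1l5 and Airn from the higher side. They are RefSeq sequences of GRCm38.p6, 250 bases before to 50 bases after the start, 5′ to 3′ on the gene's strand. Capitals mark CpG dinucleotides, where DNA methylation can occur. No methylation was measured, and the windows were not matched to the control regions.
Peg3: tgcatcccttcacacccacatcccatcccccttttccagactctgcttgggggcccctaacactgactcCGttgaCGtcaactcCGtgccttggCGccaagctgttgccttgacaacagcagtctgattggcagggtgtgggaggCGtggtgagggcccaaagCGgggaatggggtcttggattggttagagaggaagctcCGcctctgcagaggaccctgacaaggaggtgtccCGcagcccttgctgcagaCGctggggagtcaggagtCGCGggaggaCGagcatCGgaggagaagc
Mest: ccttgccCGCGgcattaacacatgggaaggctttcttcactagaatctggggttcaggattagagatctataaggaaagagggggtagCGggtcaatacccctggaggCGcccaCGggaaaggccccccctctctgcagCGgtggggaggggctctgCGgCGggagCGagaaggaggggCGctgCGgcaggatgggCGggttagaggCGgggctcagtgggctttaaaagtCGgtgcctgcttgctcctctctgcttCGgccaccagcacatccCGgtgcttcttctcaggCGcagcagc
Nnat: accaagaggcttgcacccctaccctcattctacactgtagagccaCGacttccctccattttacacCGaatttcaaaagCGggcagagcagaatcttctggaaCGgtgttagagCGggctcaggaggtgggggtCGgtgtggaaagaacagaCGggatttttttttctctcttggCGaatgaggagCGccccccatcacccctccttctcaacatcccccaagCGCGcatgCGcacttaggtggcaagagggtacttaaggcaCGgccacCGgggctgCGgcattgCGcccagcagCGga
Ndn: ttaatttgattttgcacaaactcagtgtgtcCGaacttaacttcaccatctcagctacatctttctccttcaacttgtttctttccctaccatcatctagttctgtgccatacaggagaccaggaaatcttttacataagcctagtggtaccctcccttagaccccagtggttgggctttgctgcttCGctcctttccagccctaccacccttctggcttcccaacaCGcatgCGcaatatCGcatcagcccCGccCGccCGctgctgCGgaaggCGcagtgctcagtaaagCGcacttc
Nap1l5: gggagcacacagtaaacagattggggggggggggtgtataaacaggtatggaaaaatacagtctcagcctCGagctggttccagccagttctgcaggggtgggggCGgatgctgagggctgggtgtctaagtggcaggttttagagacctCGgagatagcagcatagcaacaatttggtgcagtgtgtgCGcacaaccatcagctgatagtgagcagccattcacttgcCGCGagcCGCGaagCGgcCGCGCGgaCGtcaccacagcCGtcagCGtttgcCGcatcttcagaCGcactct
Airn: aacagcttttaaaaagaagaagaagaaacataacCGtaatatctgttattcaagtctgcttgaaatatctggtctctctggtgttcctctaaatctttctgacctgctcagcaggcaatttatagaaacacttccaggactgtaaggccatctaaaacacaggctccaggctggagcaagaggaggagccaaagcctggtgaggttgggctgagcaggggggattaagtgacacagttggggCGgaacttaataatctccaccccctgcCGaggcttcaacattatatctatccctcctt

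The windows lie at chr7:6730370-6730669 (minus strand) for Peg3, chr6:30737800-30738099 (plus) for Mest and chr2:157559828-157560127 (plus) for Nnat. Those of the other three lie at chr7:62348027-62348326 (plus) for Ndn, chr6:58907077-58907376 (minus) for Nap1l5 and chr17:12741061-12741360 (plus) for Airn. The windows held 17 CpG in Mest, Nnat and Nap1l5, 13 in Peg3, 11 in Ndn and 3 in Airn. Across members a RefSeq window was found for 36 of 45. The most CpG-rich window of each had a median of 17 CpG over the 25 tested members with a window (3 to 48), against 22 over 10263 tested genes.

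Total counts ran from 34780003 to 46644607 per library, and 3 counts corresponded to 0.0643 to 0.0863 CPM (counts on a library total scaled to a common size). Rad21 itself stood at 82.0, 91.2 and 82.5 CPM in the shRad21_2 libraries, 187, 174 and 178 CPM in shRad21_1 and 531, 450 and 456 CPM in shNT. It fell by 2.49 on the log2 scale under shRad21_2 (SE 0.09, adjusted p = 2.83e-07 by edgeR) and by 1.41 under shRad21_1 (SE 0.09, adjusted p = 1.66e-04 by edgeR). On the first principal component (60.2% of the variance) shRad21_1 replicate 1 lay at 12.6, whereas its partners lay at -20.3 and -21.2, shRad21_2 between 50.8 and 58.3 and shNT between -48.3 and -39.8. Replicates 2 and 3 were close to each other in shRad21_1 (chi-square per gene 2.17) and in shNT (3.13). The other pairs within groups had 22.2 to 67.5. The close pairs differed by more than sampling noise, which does not show that their libraries are independent. They were counted singly, and a fit with each close pair summed was an alternative. The 12 neural stem cell markers were all detected, with summed levels of 7637 to 8653 CPM in shRad21_2, 7182 to 8592 CPM in shRad21_1 and 8844 to 9239 CPM in shNT, and 3 of the 12 were higher and 5 lower in shRad21_2 than in shNT. Summed levels of 12 neuron markers were 1082 to 1196 CPM in shRad21_2, 1172 to 1246 CPM in shRad21_1 and 1227 to 1352 CPM in shNT; of 11 tested, 1 was higher and 5 were lower in shRad21_2 than in shNT, and Stmn2 was at most 0.111 CPM in any library. Summed levels of 12 oligodendrocyte lineage markers were 2746 to 3149 CPM in shRad21_2, 3163 to 3341 CPM in shRad21_1 and 2865 to 2998 CPM in shNT, and of 9 tested 1 was higher and 7 were lower in shRad21_2 than in shNT. Summed levels of 12 astrocyte markers were 450 to 527 CPM in shRad21_2, 714 to 1210 CPM in shRad21_1 and 1313 to 1359 CPM in shNT, and 9 of the 11 tested were lower in shRad21_2 than in shNT and 0 higher. Summed levels of 10 mesenchymal markers were 29.0 to 35.5 CPM in shRad21_2, 64.8 to 80.2 CPM in shRad21_1 and 91.5 to 114 CPM in shNT, with 3 of the 5 tested lower in shRad21_2 than in shNT. In that list 6 of 10 genes were under 0.5 CPM in every library and Dcn was at 0. Of all genes tested, 21.1% were higher and 22.5% lower in shRad21_2 than in shNT. The shares of tested neural stem cell markers were 25.0% and 41.7%, and of neuron markers 9.09% and 45.5%. Those of oligodendrocyte lineage markers were 11.1% and 77.8%, of astrocyte markers 0% and 81.8%, and of mesenchymal markers 0% and 60%. The part of these markers in the values of the imprinted genes was not tested. In bulk RNA, fewer cells of a type and less RNA per cell cannot be told apart.

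Of the 45 genes, 32 in 16 of the domains passed the filter on low counts, and 13 did not. Under shRad21_2 against shNT, 4 were higher (12.5% of those tested, against 21.1% of all 13560 genes tested) and 10 were lower (31.2%, against 22.5%). Under shRad21_1 against shNT, 2 were higher (all genes 4.19%) and 2 were lower (all genes 5.63%), which is 6.25% in each direction. Summing the close pairs of libraries left 64 of all genes higher in that comparison, against 568, and 0 members higher and 1 lower. Between the hairpins, 5 were higher in shRad21_2 than in shRad21_1 (15.6%, all genes 11.9%) and 9 were lower (28.1%, all genes 14.4%). A call here is a Benjamini-Hochberg adjusted p under 0.05 over all genes tested, by the quasi-likelihood test of edgeR. The median log2 fold change of the tested members was 0.04, 0.05 and -0.14 in these 3 comparisons, against 0.01, 0.01 and -0.00 over all genes. The median absolute log2 fold change was 0.40, 0.26 and 0.33 in the members and 0.33, 0.18 and 0.25 over all genes. The comparisons share libraries and are not independent of each other. In all, 17 members were called at least once, 15 were never called, and Ndn and Copg2 were called in all 3 comparisons. Only Ndn (higher), Asb4 and Copg2 (both lower) passed under both hairpins against shNT. Without shRad21_1 replicate 1, the library that stood apart, shRad21_1 against shNT had 5 members higher and 2 lower. Over all genes, 643 were higher in that fit, against 568 with all libraries. The 2 lower members equal the number with all libraries, and no all-gene count is set beside them here.

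By textbook allele, 1 of the 11 tested maternally expressed members was higher (9.09%) and 5 were lower (45.5%) under shRad21_2 against shNT, with a median log2 fold change of -0.19. Of the 18 tested paternally expressed members 3 were higher (16.7%) and 5 lower (27.8%), with a median of 0.11; of all genes 21.1% were higher and 22.5% lower. Under shRad21_1 the maternal members gave 0 higher and 2 lower (18.2%, median -0.01) and the paternal members 2 higher (11.1%) and 0 lower (median 0.09), against 4.19% higher and 5.63% lower of all genes. The difference between the allele classes was not tested. Neither class moved as a block, since each held genes called in both directions under shRad21_2.

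**Figure D1:**
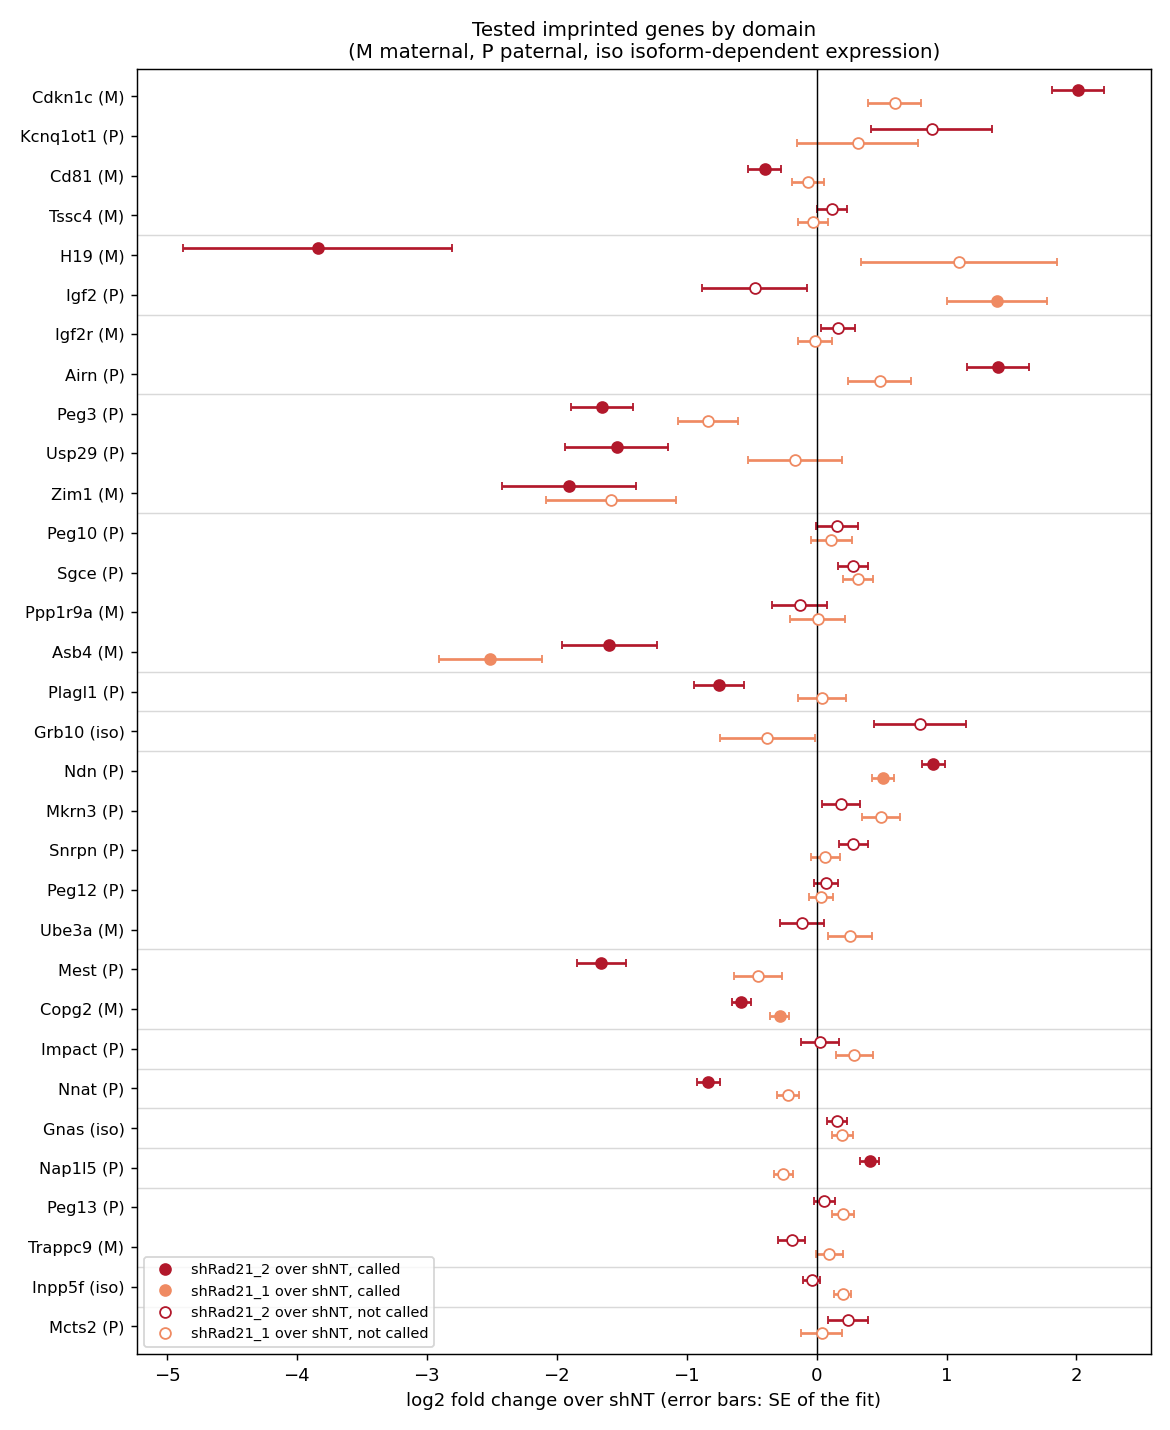
Log2 fold change over shNT of the 32 tested imprinted genes, ordered by domain, for shRad21_2 (dark red) and shRad21_1 (orange), with the SE of the edgeR fit; filled points were called. Cdkn1c at 2.01 is the highest filled point and H19 at -3.84 the lowest, and filled points of both directions occur among maternal (M) and paternal (P) genes.

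In the Kcnq1ot1 domain of chromosome 7, Cdkn1c gave the highest fold of all tested members under shRad21_2. It encodes p57, an inhibitor of cyclin-dependent kinases (chr7:143458339-143461050 in GENCODE for mm10, minus strand). Its level was 11.5, 12.6 and 15.7 CPM in shRad21_2, 3.59, 5.66 and 5.72 CPM in shRad21_1 and 3.05, 3.61 and 3.19 CPM in shNT. All 3 shRad21_2 libraries lay above the other 6, whereas shRad21_1 overlapped shNT. Cdkn1c rose by 2.01 under shRad21_2 against shNT (SE 0.20, adjusted p = 6.07e-05 by edgeR) and stood 1.41 above shRad21_1 (SE 0.20, adjusted p = 0.00110 by edgeR). Under shRad21_1 its log2 fold change of 0.60 (SE 0.20, adjusted p = 0.0905 by edgeR) was not called. Without shRad21_1 replicate 1, the lowest of its group, the value was 0.79 and was called.

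Cd81, a tetraspanin and among the most abundant members, moved the other way in the same domain. It was at 443, 374 and 431 CPM in shRad21_2, 640, 464 and 469 CPM in shRad21_1 and 528, 570 and 550 CPM in shNT. The shRad21_2 libraries lay below all shNT libraries, by -0.40 (SE 0.12, adjusted p = 0.0259 by edgeR). That call did not hold without shNT replicate 2 (-0.37), shNT replicate 3 (-0.40) or shRad21_2 replicate 2 (-0.33). The non-coding RNA Kcnq1ot1, which silences the domain in cis on the paternal chromosome, was at 12.2, 47.9 and 10.7 CPM in shRad21_2, 17.5, 15.3 and 14.9 CPM in shRad21_1 and 12.4, 13.2 and 12.7 CPM in shNT. Its 0.89 under shRad21_2 (SE 0.47, adjusted p = 0.149 by edgeR) rested on replicate 2; without that library the value was -0.15, and over all single libraries left out it ran up to 1.23. Tssc4, a spliceosome assembly factor, ranged from 39.8 to 54.8 CPM with no call. The potassium channel gene Kcnq1 (4, 3 and 0 counts summed over shRad21_2, shRad21_1 and shNT), Phlda2 (9, 0 and 0), Slc22a18 (2, 1 and 0) and Ascl2 (9, 8 and 12) were near 0 in every group.

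At the H19-Igf2 locus, where CTCF at the control region separates Igf2 from the enhancers shared with H19 in textbook accounts, both genes were low and the hairpins differed from each other. H19, a maternally expressed non-coding RNA, was at 0.0443, 0.117 and 0.228 CPM in shRad21_2, 0.272, 5.34 and 6.12 CPM in shRad21_1 and 1.26, 1.84 and 2.35 CPM in shNT. The shRad21_2 libraries held 14 H19 counts together and the shNT libraries 230, a depth-adjusted ratio of 0.0627 (0.0337 to 0.107, exact Clopper-Pearson, counting error only). All shRad21_2 libraries lay below all others, and shRad21_1 spanned the range on both sides of shNT. H19 fell by 3.84 under shRad21_2 against shNT (SE 1.03, adjusted p = 0.0134 by edgeR), a call that did not hold without shRad21_2 replicate 1 (-3.37). It was also lower in shRad21_2 than in shRad21_1 (log2 fold change -4.94, SE 1.02, adjusted p = 0.00733 by edgeR). Under shRad21_1 the 1.10 (SE 0.75, adjusted p = 0.396 by edgeR) was not called with all libraries and was 1.64, and called, without replicate 1.

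Igf2, the growth factor, was at 0.686, 1.20 and 1.08 CPM in shRad21_2, 5.63, 2.45 and 2.69 CPM in shRad21_1 and 1.10, 1.96 and 1.04 CPM in shNT. The 3 shRad21_1 libraries lay above the other 6. Igf2 was lower in shRad21_2 than in shRad21_1 (log2 difference -1.86, SE 0.40, adjusted p = 0.00852 by edgeR), a call kept in all 18 other fits. Its 1.39 under shRad21_1 against shNT (SE 0.39, adjusted p = 0.0498 by edgeR) was called in only 4 of 18 other fits. With the replicate block it was 1.39 (adjusted p = 0.0700 by edgeR), and over the alternatives the adjusted p ran between 0.00801 and 0.184. The call also failed without shNT replicate 1 (1.26), 2 (1.74) or 3 (1.22), without shRad21_1 replicate 1 (0.91) or 3 (1.56), and without any single shRad21_2 library (1.39 each time). In replicate 1 of shRad21_1 Igf2 was the highest and H19 the lowest of the group. The astrocyte marker Gfap was 0.190, 14.6 and 15.1 CPM in the same 3 libraries, 0, 0.0293 and 0.0856 CPM in shRad21_2 and 4.62, 8.59 and 10.5 CPM in shNT; its part in the H19 values was not tested.

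The receptor that clears IGF2, Igf2r on chromosome 17, was expressed at 124 to 184 CPM in shRad21_2, 126 to 152 CPM in shRad21_1 and 135 to 140 CPM in shNT, and was not called; without shRad21_2 replicate 3 it was higher under shRad21_2 (0.30) and called. Airn, the paternally read RNA that overlaps Igf2r by 28354 bases on the other strand and silences it in cis, was higher under shRad21_2. Airn was at 2.41, 3.70 and 2.51 CPM in shRad21_2, 1.55, 1.33 and 1.70 CPM in shRad21_1 and 1.13, 0.944 and 1.20 CPM in shNT, with no overlap between the groups. It rose by 1.39 under shRad21_2 against shNT (SE 0.24, adjusted p = 0.00129 by edgeR). The 0.91 between the hairpins (SE 0.23, adjusted p = 0.0189 by edgeR) did not hold without shRad21_1 replicate 2 (0.82) or shRad21_2 replicate 2 (0.69). Igf2r and Airn share no exon bases, and whether reads were counted by strand is unknown here.

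The Dlk1-Dio3 domain of chromosome 12, known for its clusters of small RNAs and for Dlk1 in neural progenitors, was almost silent. None of its 6 members passed the filter. Dlk1, a transmembrane protein with EGF repeats, had 8 counts in shRad21_2, 51 in shRad21_1 (8, 20 and 23) and 9 in shNT. The ratio of shRad21_1 to shNT was 6.21 (3.03 to 14.4, exact Clopper-Pearson, counting error only). The maternally read RNAs Meg3 (4, 3 and 6 counts), Rian (1, 4 and 10) and Mirg (0, 0 and 1) were near 0 in shRad21_2, shRad21_1 and shNT, and Rtl1 and Dio3 had no count in any library.

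All 3 members at the Peg3 domain were lower under shRad21_2 against shNT, where 22.5% of all genes tested were lower. The 3 genes lie side by side and are not independent observations. Peg3, a zinc finger protein (chr7:6703892-6730431, minus strand), was at 24.6, 26.2 and 14.8 CPM in shRad21_2, 27.0, 44.5 and 43.9 CPM in shRad21_1 and 78.4, 66.6 and 60.9 CPM in shNT. The groups stood in 3 separate steps, and the lowest shNT library exceeded the highest knockdown library. Peg3 fell by 1.65 under shRad21_2 against shNT (SE 0.24, adjusted p = 5.05e-04 by edgeR), and the 0.82 by which it was lower than in shRad21_1 was also called (-0.82, SE 0.24, adjusted p = 0.0308 by edgeR). The second call did not hold without shRad21_1 replicate 2 (-0.70), shRad21_1 replicate 3 (-0.71) or shRad21_2 replicate 3 (-0.60). Under shRad21_1 the value of -0.84 (SE 0.23, adjusted p = 0.0509 by edgeR) missed the threshold, and it was called in 6 of the 18 other fits.

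Usp29, a ubiquitin-specific protease read away from Peg3 with 146 bases between the genes and 263 bases of promoter window in common, was at 0.288 to 0.440 CPM in shRad21_2, 0.544 to 1.41 CPM in shRad21_1 and 0.897 to 1.32 CPM in shNT. It fell by 1.54 under shRad21_2 against shNT (SE 0.39, adjusted p = 0.0105 by edgeR). Between the hairpins its -1.37 (SE 0.40, adjusted p = 0.0306 by edgeR) did not hold without shNT replicate 3 (-1.37), shRad21_1 replicate 2 (-0.96) or 3 (-1.42), or shRad21_2 replicate 1 (-1.21) or 3 (-1.39). Zim1, a zinc finger gene 7441 bases from Peg3 that is read from the maternal allele, was at 0.0571 to 0.323 CPM in shRad21_2, 0.160 to 0.372 CPM in shRad21_1 and 0.577 to 0.873 CPM in shNT. It fell by 1.90 under shRad21_2 against shNT (SE 0.52, adjusted p = 0.0137 by edgeR), a call that did not hold without shNT replicate 2 (-1.75). The paternal and the maternal members of this domain thus had values on the same side of 0. Usp29 and Zim1 lay close to the limit of counting.

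In the Peg10-Sgce domain of chromosome 6, the abundant members were not called. Peg10, a retrotransposon-derived gag-like gene, was at 657 to 1107 CPM in shRad21_2, 787 to 880 CPM in shRad21_1 and 724 to 783 CPM in shNT. Sgce (epsilon-sarcoglycan) ranged from 36.2 to 58.5 CPM over all libraries and Ppp1r9a (the actin-binding protein neurabin) from 59.6 to 121 CPM. Under shRad21_2 against shNT, Sgce was called without shRad21_1 replicate 1 (0.28) and Ppp1r9a without shRad21_2 replicate 2 (-0.49). In Peg10 and Ppp1r9a the highest library was shRad21_2 replicate 2, which was the highest of its group in 15 of the 32 tested members. Asb4, a SOCS box protein, was lower under both hairpins: 0.411 to 0.620 CPM in shRad21_2 and 0.133 to 0.346 CPM in shRad21_1, against 1.25 to 2.09 CPM in shNT. Its log2 fold changes were -1.60 under shRad21_2 (SE 0.37, adjusted p = 0.00607 by edgeR) and -2.51 under shRad21_1 (SE 0.39, adjusted p = 0.00513 by edgeR), and both calls were kept in all 18 other fits. The hairpins themselves were not called apart for Asb4 (0.92, SE 0.42).

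Plagl1 encodes the zinc finger transcription factor ZAC1. It was at 5.36, 6.10 and 4.25 CPM in shRad21_2, 11.7, 7.84 and 7.71 CPM in shRad21_1 and 9.05, 8.62 and 8.80 CPM in shNT. Every shRad21_2 library lay below the other 6. Plagl1 fell by 0.75 under shRad21_2 against shNT (SE 0.19, adjusted p = 0.0102 by edgeR), and its -0.79 against shRad21_1 (SE 0.19, adjusted p = 0.0144 by edgeR) did not hold without shRad21_2 replicate 3 (-0.66). Grb10, an adaptor that restrains insulin and IGF receptor signalling and switches allele between tissues, was at 2.75, 3.52 and 2.45 CPM in shRad21_2, 2.01, 1.17 and 0.665 CPM in shRad21_1 and 2.14, 1.42 and 1.46 CPM in shNT. It was called only between the hairpins (1.18, SE 0.36, adjusted p = 0.0381 by edgeR), in 9 of 18 other fits. The call did not hold without shNT replicate 2 or 3 (1.18 each), shRad21_1 replicate 2 (1.12) or 3 (0.87), or shRad21_2 replicate 1 (1.22), 2 (1.02) or 3 (1.29). Its neighbour Ddc, the aromatic amino acid decarboxylase, had 16, 36 and 26 counts in shRad21_2, shRad21_1 and shNT and was not tested.

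In the Snrpn-Ube3a domain of chromosome 7, the region of Prader-Willi and Angelman syndromes in humans, Ndn was the called member. Ndn encodes necdin, a MAGE family protein of postmitotic neurons and progenitors (chr7:62346569-62350262, plus strand). Its level was 48.5, 45.6 and 53.7 CPM in shRad21_2, 37.5, 38.7 and 36.9 CPM in shRad21_1 and 25.0, 26.9 and 27.3 CPM in shNT. The 3 groups did not overlap. Ndn rose by 0.90 under shRad21_2 (SE 0.09, adjusted p = 4.49e-05 by edgeR) and by 0.51 under shRad21_1 (SE 0.09, adjusted p = 0.00664 by edgeR), and was 0.39 higher in shRad21_2 than in shRad21_1 (SE 0.09, adjusted p = 0.00961 by edgeR). No single library left out ended these calls. With the close pairs of libraries summed, the values under shRad21_1 (0.53) and between the hairpins (0.39) were not called. Its neighbours were expressed and not called: Snrpn, a splicing ribonucleoprotein, at 32.6 to 49.1 CPM, Ube3a, a ubiquitin ligase, at 74.8 to 134 CPM, Peg12, of the FRAT family, at 114 to 146 CPM, and the makorin Mkrn3 at 4.62 to 8.27 CPM over all libraries. Mkrn3 under shRad21_1 against shNT was at 0.50 (SE 0.15, adjusted p = 0.0600 by edgeR), and with the replicate block at 0.50 and called (adjusted p = 0.0434 by edgeR). Over the alternatives its adjusted p ran between 0.0220 and 0.268, and it was also called without shRad21_1 replicate 1 (0.55). Without shRad21_2 replicate 2, Snrpn (0.39) and Ube3a (-0.36) were called under shRad21_2 against shNT. Magel2, another MAGE gene of the domain, had no count in any library.

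Mest was the most abundant tested member per kilobase of exon in shNT and one of the larger decreases. It encodes an alpha/beta hydrolase-fold protein (chr6:30723547-30748465, plus strand). It was at 252, 229 and 245 CPM in shRad21_2, 775, 450 and 450 CPM in shRad21_1 and 797, 749 and 743 CPM in shNT. The shRad21_2 libraries were the 3 lowest, and shRad21_1 replicate 1 lay within shNT. Mest fell by 1.66 under shRad21_2 against shNT (SE 0.19, adjusted p = 1.14e-04 by edgeR) and lay below shRad21_1 (log2 difference -1.21, SE 0.18, adjusted p = 0.00169 by edgeR). The -0.45 under shRad21_1 (SE 0.18, adjusted p = 0.148 by edgeR) was not called with all libraries; without shRad21_1 replicate 1 it was -0.76 and was called.

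Copg2, the coatomer gamma 2 subunit read towards Mest from the other strand, was at 58.1, 57.6 and 55.6 CPM in shRad21_2, 67.2, 71.0 and 72.0 CPM in shRad21_1 and 78.4, 89.2 and 88.3 CPM in shNT, in 3 separate steps. It fell by 0.58 under shRad21_2 (SE 0.07, adjusted p = 2.40e-04 by edgeR) and by 0.28 under shRad21_1 (SE 0.07, adjusted p = 0.0387 by edgeR). The hairpins differed by -0.30 (SE 0.07, adjusted p = 0.0167 by edgeR). For shRad21_1 the call was missing without shNT replicate 2 (-0.25) or 3 (-0.26), or shRad21_1 replicate 1 (-0.25), 2 (-0.29) or 3 (-0.30), and that between the hairpins without shRad21_1 replicate 2 (-0.29) or 3 (-0.28). Mest and Copg2 share 912 exon bases on opposite strands, where reads cannot be assigned without strand.

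Nnat encodes neuronatin, a small membrane proteolipid of neural tissue, and lies inside Blcap on the opposite strand. It was at 199, 176 and 205 CPM in shRad21_2, 284, 301 and 303 CPM in shRad21_1 and 380, 329 and 325 CPM in shNT. The groups formed 3 steps without overlap. Nnat fell by 0.83 under shRad21_2 against shNT (SE 0.09, adjusted p = 7.07e-05 by edgeR) and was lower than in shRad21_1 by -0.61 (SE 0.09, adjusted p = 0.00110 by edgeR). Nap1l5, a nucleosome assembly protein-like gene inside Herc3, was a member in which the hairpins lay on opposite sides of shNT in every library. It was at 127, 117 and 138 CPM in shRad21_2, 79.6, 82.2 and 79.6 CPM in shRad21_1 and 96.3, 95.6 and 96.0 CPM in shNT. Nap1l5 rose by 0.41 under shRad21_2 against shNT (SE 0.07, adjusted p = 0.00156 by edgeR) and was 0.66 higher than in shRad21_1 (SE 0.07, adjusted p = 2.74e-04 by edgeR). Its -0.25 under shRad21_1 (SE 0.07, adjusted p = 0.0528 by edgeR) was not called, but was without shRad21_2 replicate 2 (-0.25) or 3 (-0.26).

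Inpp5f, a phosphoinositide phosphatase, was at 108, 112 and 107 CPM in shRad21_2, 125, 132 and 129 CPM in shRad21_1 and 105, 116 and 114 CPM in shNT. It was called only between the hairpins (-0.24, SE 0.07, adjusted p = 0.0249 by edgeR), and not without shNT replicate 3 (-0.24), shRad21_1 replicate 2 (-0.22) or 3 (-0.24), or shRad21_2 replicate 3 (-0.23). The G protein gene Gnas, the most abundant member by CPM (1201 to 1554 CPM over all libraries), was not called. Nor were Impact, an inhibitor of the kinase GCN2 (38.5 to 62.9 CPM), the non-coding RNA Peg13 (47.2 to 59.0 CPM), its host Trappc9 (40.4 to 55.6 CPM) or the retrogene Mcts2 (8.14 to 13.2 CPM). Without shNT replicate 1, Trappc9 was lower under shRad21_2 against shNT (-0.28) and called. Zdbf2 had 0, 2 and 2 counts in shRad21_2, shRad21_1 and shNT and was not tested.

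**Figure D2:**
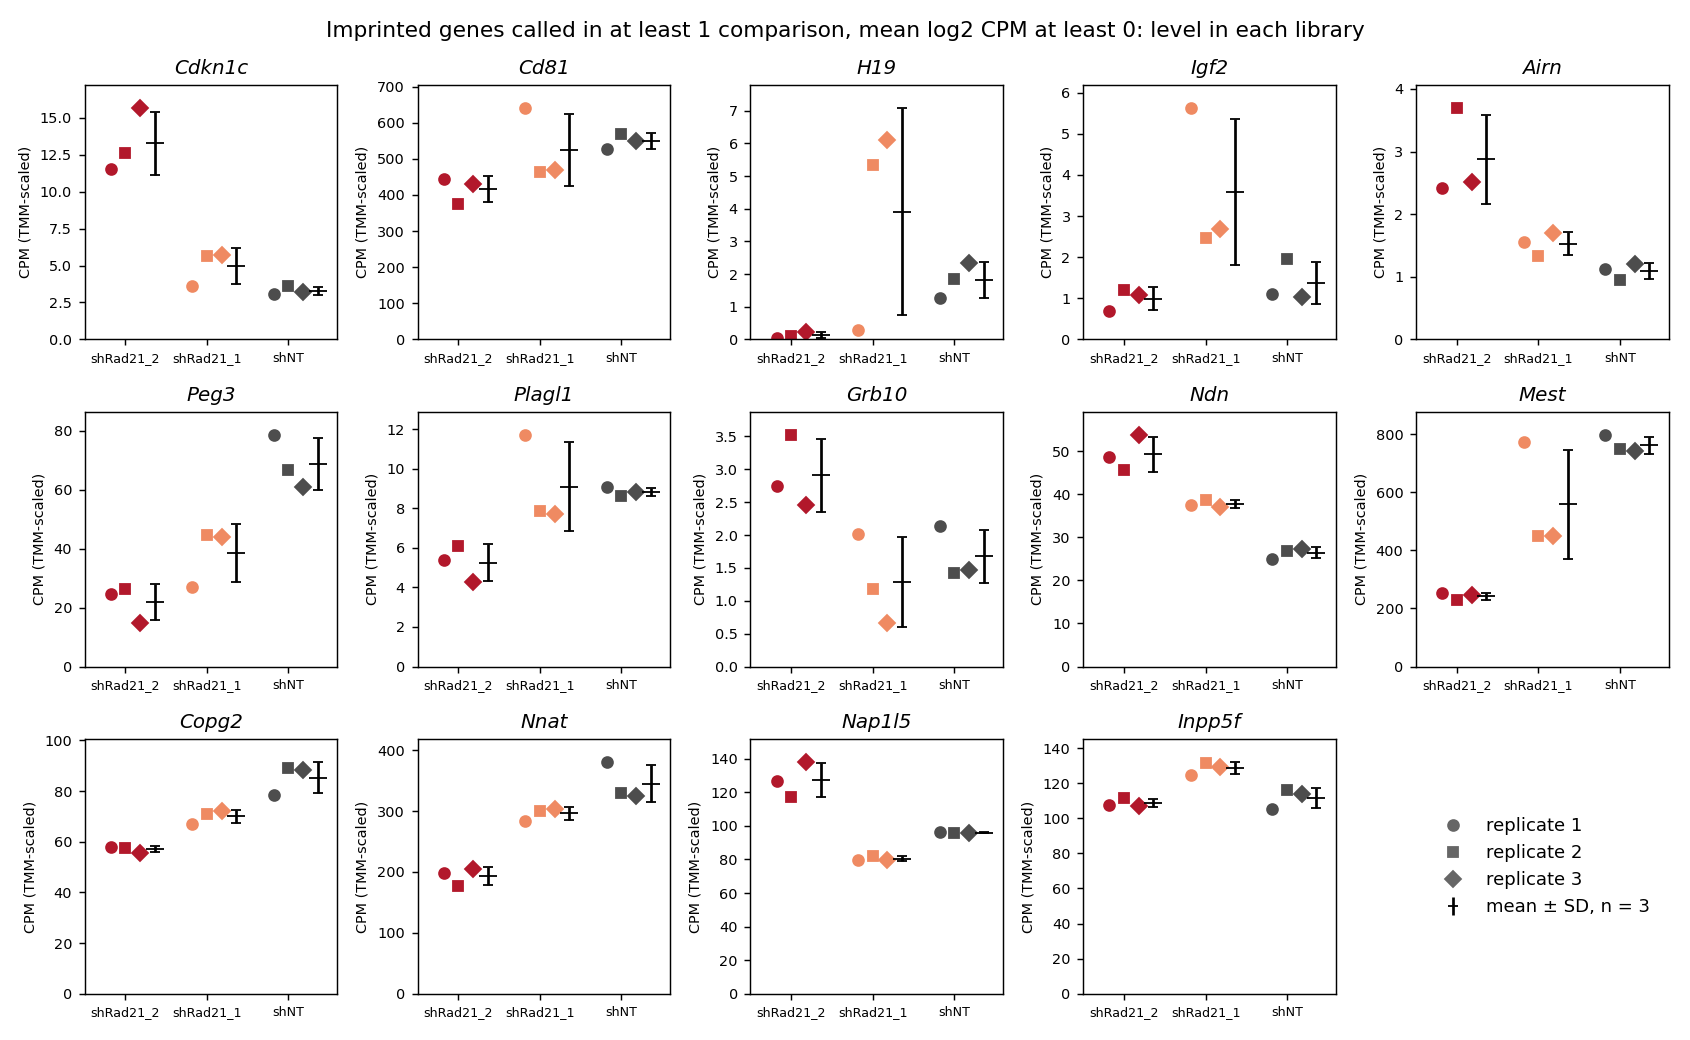
Level in each library (CPM on TMM-scaled totals) of the called imprinted genes with a mean log2 CPM of at least 0; points are libraries, the black bar is the mean ± SD (n = 3). Ndn, Copg2 and Nnat stand in 3 separate steps, and shRad21_1 replicate 1 (circle) lies apart from its partners in Mest, Igf2 and H19.

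Levels per kilobase of exon, which allow genes to be compared, spanned the members widely. Among the tested members in shNT they were highest for Mest (193 CPM per kb), Cd81 (191 CPM per kb), Nnat (189 CPM per kb), Peg10 (114 CPM per kb) and Gnas (113 CPM per kb), and lowest for Usp29 (0.0589 CPM per kb). In shRad21_2, Mest was at 61.4 CPM per kb and stood below Cd81 (145 CPM per kb), Peg10 (127 CPM per kb), Gnas (126 CPM per kb), Nnat (106 CPM per kb) and Nap1l5 (69.1 CPM per kb).

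**Figure D3:**
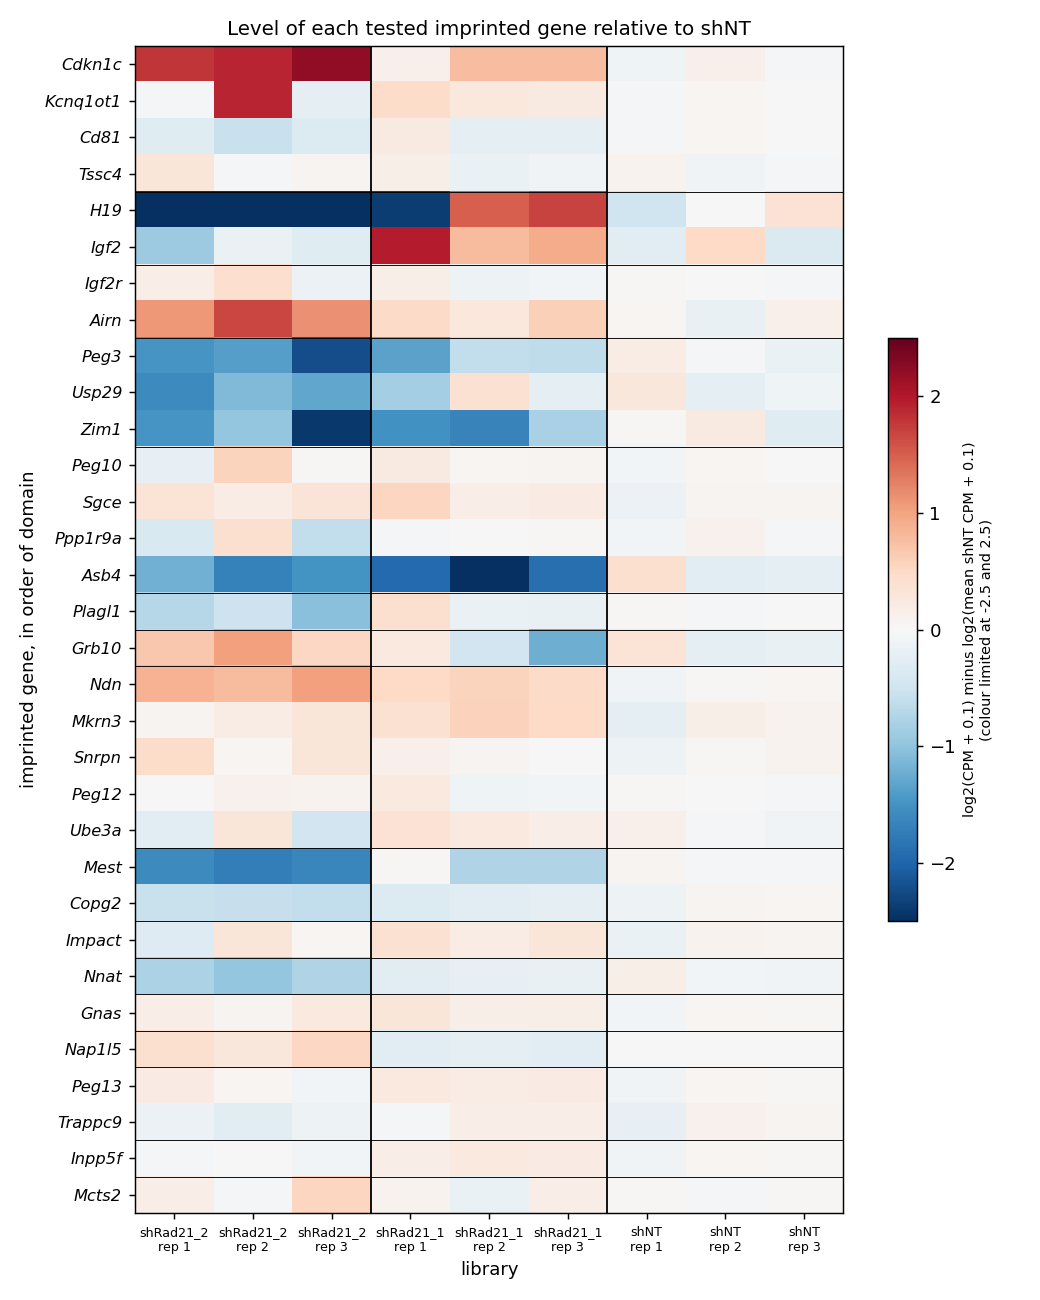
Level of each of the 32 tested imprinted genes in each library relative to the shNT mean, as log2(CPM + 0.1) differences with the colour limited at -2.5 and 2.5. Blue rows under shRad21_2 include H19, Peg3 and Mest and red rows Cdkn1c and Airn; shRad21_1 replicate 1 differed by over 1.5 times from the mean of its partners in 8 of the 32 genes.

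A further list of 46 imprinted genes outside the 45 had 45 in the table and 29 tested. Whether they are imprinted in these cells was not measured. Under shRad21_2 against shNT 7 were higher (24.1%, all genes 21.1%) and 8 lower (27.6%, all genes 22.5%). Under shRad21_1 3 were higher (10.3%, all genes 4.19%) and 2 lower (6.90%, all genes 5.63%), and between the hairpins 2 were higher (6.90%, all genes 11.9%) and 10 lower (34.5%, all genes 14.4%) in shRad21_2. The median log2 fold changes were 0.03, -0.02 and -0.16, against 0.01, 0.01 and -0.00 over all genes. Begain, 384605 bases from Dlk1, was at 0.354 to 0.571 CPM in shRad21_2, 0.734 to 2.23 CPM in shRad21_1 and 0.110 to 0.177 CPM in shNT. It rose by 1.55 under shRad21_2 (SE 0.51, adjusted p = 0.0320 by edgeR) and by 3.30 under shRad21_1 (SE 0.48, adjusted p = 0.00342 by edgeR). The call under shRad21_2 did not hold without shNT replicate 1 (1.38), 2 (1.61) or 3 (1.68), or shRad21_2 replicate 2 (1.57) or 3 (1.35), and by limma-voom it was 1.49 and not called. With the close pairs of libraries summed, the values of 1.60 under shRad21_2 and 3.18 under shRad21_1 (adjusted p = 0.0523 by edgeR) were not called. Nespas, read antisense to Gnas transcripts and sharing 988 exon bases with Gnas, was at 1.91 to 2.58 CPM in shRad21_2, 1.28 to 1.60 CPM in shRad21_1 and 0.614 to 0.825 CPM in shNT. It rose by 1.67 under shRad21_2 (SE 0.23, adjusted p = 4.11e-04 by edgeR) and by 1.03 under shRad21_1 (SE 0.24, adjusted p = 0.0237 by edgeR), of which the second did not hold without shNT replicate 2 (0.94) or 3 (1.01) or shRad21_1 replicate 2 (1.02).

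Herc3, the host of Nap1l5, fell by 0.61 under shRad21_2 (SE 0.10, adjusted p = 9.12e-04 by edgeR) and by 0.43 under shRad21_1 (SE 0.10, adjusted p = 0.0228 by edgeR). The second call did not hold without shNT replicate 2 (-0.46) or 3 (-0.38) or shRad21_1 replicate 2 or 3 (-0.46 each). Blcap, the host of Nnat, fell by 0.64 under shRad21_2 (SE 0.14, adjusted p = 0.00466 by edgeR). Host and nested gene thus lay on the same side under shRad21_2 for Nnat with Blcap and on opposite sides for Nap1l5 with Herc3. The signalling adaptor Gab1 fell by 1.15 under shRad21_2 (SE 0.07, adjusted p = 3.81e-06 by edgeR) and by 0.37 under shRad21_1 (SE 0.07, adjusted p = 0.00980 by edgeR), of which the second did not hold without shNT replicate 2 (-0.36). Gatm, of creatine synthesis, changed by -1.30, the phospholipid flippase Atp10a by -1.03 and the cell adhesion gene Ntm by -0.63 under shRad21_2, whereas the AMP deaminase Ampd3 changed by 1.19, all called. Osbpl5, a lipid transfer protein, rose by 0.67 (SE 0.21, adjusted p = 0.0281 by edgeR), a call that did not hold without any single shNT library (0.66, 0.67 and 0.68) and without shRad21_2 replicate 1 or 2 (0.65 each).

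**Figure D4:**
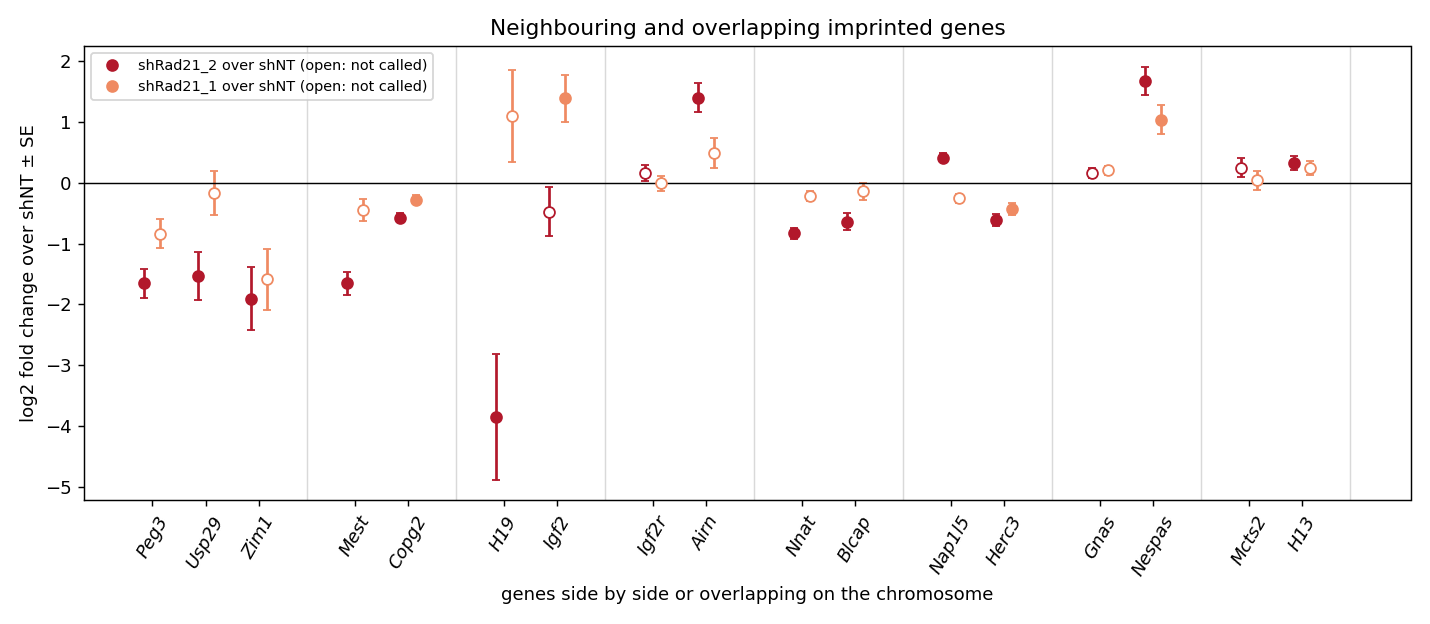
Log2 fold change over shNT with the SE of the fit for imprinted genes that adjoin or overlap, shRad21_2 left (dark red) and shRad21_1 right (orange), open points not called. Peg3, Usp29 and Zim1 lie between -1.90 and -1.54 under shRad21_2, whereas Nap1l5 (0.41) and its host Herc3 (-0.61) lie on opposite sides of 0.

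Of 20 factors that set, maintain, read or remove imprints or DNA methylation, 17 were tested. Among these were Dnmt3a, Dnmt3b, Tet1, Tet2, Tet3 and Ctcf. Dnmt3b and Tet3 were called higher under shRad21_2 against shNT (adjusted p = 0.0305 and 0.0385 by edgeR). Ctcf was also called higher in that comparison (adjusted p = 0.0313 by edgeR). How these calls hold in the other fits is not given here. Under shRad21_2 against shNT 8 of the 17 factors were higher (47.1%, against 21.1% of all genes) and 0 lower (against 22.5%). Under shRad21_1, where 4.19% of all genes were higher and 5.63% lower, 0 were called at the adjusted threshold by edgeR, with 4 at an unadjusted p under 0.05. The median log2 fold change was 0.27 under shRad21_2 and 0.09 under shRad21_1. The median absolute log2 fold change was 0.28 under shRad21_2 (all genes 0.33) and 0.15 under shRad21_1 (all genes 0.18). Trim28, the KAP1 corepressor, was at 648, 589 and 680 CPM in shRad21_2, 558, 531 and 532 CPM in shRad21_1 and 530, 473 and 492 CPM in shNT, and rose by 0.36 under shRad21_2 (SE 0.08, adjusted p = 0.00447 by edgeR). With the close pairs of libraries summed, Trim28 was at 0.33 and not called (adjusted p = 0.0512 by edgeR). The maintenance methyltransferase Dnmt1 rose by 0.28 (SE 0.08), the remodeller Hells by 0.37 (SE 0.10) and the H3K9 methyltransferase Setdb1 by 0.26 (SE 0.07) in the same comparison. Each of these 3 calls did not hold without shNT replicate 2 (0.26, 0.33 and 0.23 for Dnmt1, Hells and Setdb1) or replicate 3 (0.26, 0.33 and 0.24), and that of Dnmt1 also without shRad21_2 replicate 1 (0.24). With library totals the calls of Dnmt1 (0.21) and Setdb1 (0.19) were lost, and with the close pairs summed those of Dnmt1 (0.26), Hells (0.33) and Setdb1 (0.23).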

How the data were processed

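The deposited table holds whole-number counts per gene symbol, made by the authors; the submitters' processing notes name Bowtie2, RSEM, Trim Galore, cutadapt, FastQC and build mm10. Not given in the sources used here were tool versions, annotation, strand setting and the rounding of RSEM estimates. Counts were fitted in edgeR 4.0.16 (R 4.3.3) and tested by quasi-likelihood (TMM scaling, filterByExpr by group, 1 fit of 3 group means over 9 libraries, two-sided, Benjamini-Hochberg over 13560 genes). CPM are on TMM-scaled totals, as mean ± SD with n = 3; CPM per kb divides by the GENCODE exon union of the same build. Each SE was derived as the absolute log2 fold change divided by the square root of the F statistic of its edgeR test. The edgeR test was checked on simulated counts of independent libraries, without close pairs or a library that stood apart.

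Members and lists were chosen with earlier results of these data known. Per-library values are given for called members with a mean log2 CPM of at least 0. From other imprinted genes the text names those called the same way under both hairpins and the 6 largest further folds under shRad21_2 whose mean log2 CPM reached 1. From the list of imprint and methylation factors the 4 with the smallest p under shRad21_2 are described with their values. Dnmt3b, Tet3 and Ctcf are given with their adjusted p only. The alleles and roles are background knowledge.

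Alternatives were DESeq2 1.42.0 size factors and Wald test, library totals, limma-voom (limma 3.58.1), other filters, a minimum log2 fold of 1, fits of 2 groups, a replicate block, close pairs summed (replicates 2 and 3 of shNT and of shRad21_1) and each library left out. Replicate numbers in the labels are shared by all groups. Deviations of same-numbered libraries correlated at 0.242, 0.116 and 0.117 between shRad21_1 and shNT, and at 0.0174 to 0.0886 for pairs with shRad21_2. Because replicates 2 and 3 were close in both shRad21_1 and shNT, the values for these groups are not independent of each other and cannot settle a pairing. The main fit used no pairing, and the replicate block was the alternative that did.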

Additional observations from a re-analysis of the deposited data

How the results depend on the processing

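Of the 32 member calls, 17 were kept in all other fits that tested the gene. The minimum log2 fold of 1 was left out of this count. Kcnq1ot1 under shRad21_2 against shNT reversed to -0.15 without shRad21_2 replicate 2 (up to 1.23 with other single libraries left out). With a minimum log2 fold of 1, shRad21_2 against shNT had 2 members higher and 6 lower (all genes 365 and 1389), shRad21_1 against shNT 1 and 1 (149 and 276), and shRad21_2 against shRad21_1 2 and 4 (146 and 815). With close pairs summed, shRad21_2 against shNT had 4 members higher and 9 lower (1580 and 2127 genes). In that fit shRad21_1 against shNT had 0 members higher and 1 lower (64 and 66 genes). Between the hairpins it gave 2 and 5 members (349 and 921 genes). The fit has fewer libraries. For shRad21_1 against shNT, 1 member was higher with library totals (523 genes), limma-voom (565), the stricter filter (536) or only 2 groups (790). With the DESeq2 Wald test 5 members were higher (910 genes) and 4 lower, and with only 2 groups 5 were lower. For these lower members no all-gene count is given here, so they are not read as particular to imprinted genes. With only 2 groups, 871 genes were higher in shRad21_2 than in shRad21_1. The cause was not tested. With each library left out, shRad21_2 against shNT had 4 to 6 members higher and 8 to 11 lower (1926 to 3329 and 2337 to 3529 genes), shRad21_1 against shNT 1 to 5 and 1 to 4 (172 to 643 and 287 to 956 genes), and shRad21_2 against shRad21_1 3 to 5 and 5 to 13 (749 to 2029 and 1291 to 2457 genes). With the replicate block the members gave 4 higher and 10 lower, 2 and 2, and 5 and 9 (all genes 2954 and 3112, 615 and 821, 1667 and 1976); under shRad21_1, Igf2 was at 1.39 and lost its call (adjusted p of 0.0700) and Mkrn3 at 0.50 gained one (0.0434), and among the members and the other named genes it otherwise changed only the call of Dnmt1 between the hairpins (0.26). H19 under shRad21_2 was not called by limma-voom (-3.95 against shNT and -4.19 against shRad21_1). With close pairs summed, the calls of Cd81 under shRad21_2 (-0.39), of Igf2 (1.64), Ndn (0.53) and Copg2 (-0.27) under shRad21_1, and of Airn (0.90), Peg3 (-0.71), Usp29 (-1.24), Grb10 (1.01), Ndn (0.39), Copg2 (-0.28) and Inpp5f (-0.23) between the hairpins were lost, and of the other named genes those of Begain, Trim28, Dnmt1, Hells, Setdb1 and Osbpl5 (0.68) under shRad21_2, and of Begain, Nespas (1.02), Herc3 (-0.45) and Gab1 (-0.40) under shRad21_1. With only 2 groups those of Igf2 (1.39), Peg3 (-0.82), Usp29 (-1.38), Grb10 (1.17) and Inpp5f (-0.25) were lost, and with no filter that of Copg2 under shRad21_1 (-0.28). Depth limits the 13 untested members, of which Rtl1, Dio3 and Magel2 had no count.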
